A study of Mus musculus with 12 samples.

Results

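Pan-reactive astrocyte genes are transcripts reported to rise in astrocytes after more than 1 kind of brain injury, and glial filaments are the intermediate filaments that stiffen astrocytes and their precursors. The 9 genes described here (Gfap, Vim, Nes, Synm, Lcn2, Steap4, S1pr3, Aspg and Hspb1) were taken by name from a table of 54532 mouse genes. All 9 were found, and 8 of them passed the filter of at least 1 FPKM (fragments scaled to gene length and sequencing depth) in at least 2 of 12 libraries. The exception was Aspg.

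Cortex and hippocampus of C57BL/6 mice were dissociated with trypsin and papain, adult astrocytes were cultured, and their RNA was sequenced in 12 libraries, 2 in each of 6 groups. The Ogt cKO libraries came from 4-month-old mice with Glast-CreERT2 and a floxed Ogt allele (Glast-CreERT2::Ogtfloxp/Y), in which the Glast promoter drives a tamoxifen-inducible Cre in astrocytes and other Glast-expressing cells. The cKO control libraries, also from mice aged 4 months, carry the identical genotype label and were told apart by their descriptions, so what the controls lacked is not stated. The AD model libraries came from mice labelled as the 5X APP Alzheimer's mice model, aged 6 months, and the AD control libraries from wild-type mice of the same age (the series text gives 5 months for this experiment). The Aβ treated libraries came from cultures of wild-type mice aged 2 months, exposed to 20 µM amyloid-beta 1-42 for 72 hours (73 hours in the label of 1 of the 2 samples). The Aβ control libraries came from untreated cultures of wild-type mice aged 2 months. Nothing in the labels says that replicates came from separate animals or cultures, so p-values measure only the spread between these samples, which may be technical.

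Astrocytes respond to injury and inflammation by changing shape, filament content and secretion, a state called reactive gliosis. Glial fibrillary acidic protein, vimentin, nestin and synemin assemble together into their filaments, with vimentin and nestin also made by progenitors, vascular mural cells and fibroblasts. Lipocalin-2 and Steap4 are induced by inflammatory cytokines in many cell types, and Hspb1 is a chaperone that binds actin and intermediate filaments.

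The tables held 16418852 to 18705309 reads per library, so that 3 reads on a gene of 1 kb were worth 0.145 to 0.191 FPKM. Ogt, the deleted gene, had 11.04 and 12.03 FPKM in the Ogt cKO libraries, against 20.8 and 24.7 FPKM in the cKO control libraries, a log2 change of -0.92 ± 0.30 (SE) on log2(FPKM + 1) with a limma adjusted p of 0.038. The other 8 libraries held 7.85 to 22.7 FPKM of Ogt, so the Ogt cKO level was not the lowest of the series. Markers of several brain cell types were present in every group. The summed FPKM of 15 mature astrocyte markers was 165 to 175 in Ogt cKO, against 533 to 668 in cKO control libraries, 293 to 304 in AD model, against 415 to 533 in AD control libraries, and 191 to 302 in Aβ treated, against 171 to 175 in Aβ control libraries. Aqp4 and Slc1a2 were detected in all 12 libraries and Gjb6 was at 0 in 7 of them. The Ogt cKO and Aβ control libraries, which belong to different experiments and ages, stood close together. Their log2(FPKM + 1) values over the 14014 tested genes correlated at 0.975 to 0.981 (4 pairs of libraries), whereas the Ogt cKO and cKO control libraries correlated at 0.871 to 0.894 and the replicates within a group at 0.944 to 0.991. Whether these libraries carry the right labels cannot be told from the labels or the table, and that doubt touches every Ogt cKO value given here.

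On mm10, the table places Gfap (ENSMUSG00000020932) at chr11:102887336-102900912, Synm (ENSMUSG00000030554) at chr7:67730160-67759742 and Lcn2 (ENSMUSG00000026822) at chr2:32384633-32388252 on the minus strand. It places Vim (ENSMUSG00000026728) at chr2:13573927-13582826, Nes (ENSMUSG00000004891) at chr3:87971078-87980451 and Steap4 (ENSMUSG00000012428) at chr5:7960457-7982213 on the plus strand. Also on the plus strand are S1pr3 (ENSMUSG00000067586) at chr13:51408639-51422797, Aspg (ENSMUSG00000037686) at chr12:112106679-112127559 and Hspb1 (ENSMUSG00000004951) at chr5:135887919-135889563. The gene lengths behind the FPKM were 1031 bases for Hspb1 to 7933 bases for Synm.

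The promoters of 4 of the genes are shown first, from RefSeq (build GRCm38.p6), which held 1 for each of the 9 genes. Each runs 5′ to 3′ on the strand of its gene from 250 bases before the annotated start to 50 bases after it, and capitals mark matches to the motifs searched. Lcn2 (chr2:32387690-32387989, minus strand, a start inside the span that the table lists for the gene) and Steap4 (chr5:7960222-7960521, plus strand) are shown because both were raised in the AD model and Aβ treated libraries.
Lcn2: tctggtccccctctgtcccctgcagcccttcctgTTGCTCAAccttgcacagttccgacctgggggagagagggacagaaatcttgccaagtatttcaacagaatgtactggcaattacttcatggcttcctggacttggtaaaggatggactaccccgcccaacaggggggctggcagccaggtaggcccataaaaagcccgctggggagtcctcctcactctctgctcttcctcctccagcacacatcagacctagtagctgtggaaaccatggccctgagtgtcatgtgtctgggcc
Steap4: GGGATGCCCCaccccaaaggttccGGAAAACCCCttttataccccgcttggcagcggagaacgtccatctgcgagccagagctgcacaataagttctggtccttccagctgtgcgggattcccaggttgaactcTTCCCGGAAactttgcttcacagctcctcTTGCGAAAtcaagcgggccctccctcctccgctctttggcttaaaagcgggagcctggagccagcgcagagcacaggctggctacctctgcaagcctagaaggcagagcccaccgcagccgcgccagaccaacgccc
Gfap (chr11:102897151-102897450, minus strand, a start inside the span that the table lists for the gene) and Hspb1 (chr5:135887669-135887968, plus strand) are shown because they moved in opposite directions in Ogt cKO.
Gfap: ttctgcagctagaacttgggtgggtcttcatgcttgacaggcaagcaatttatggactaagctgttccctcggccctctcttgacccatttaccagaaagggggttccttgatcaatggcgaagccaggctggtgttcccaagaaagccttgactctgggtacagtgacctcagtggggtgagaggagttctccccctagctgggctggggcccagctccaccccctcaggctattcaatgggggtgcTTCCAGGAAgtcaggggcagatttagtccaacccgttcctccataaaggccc
Hspb1: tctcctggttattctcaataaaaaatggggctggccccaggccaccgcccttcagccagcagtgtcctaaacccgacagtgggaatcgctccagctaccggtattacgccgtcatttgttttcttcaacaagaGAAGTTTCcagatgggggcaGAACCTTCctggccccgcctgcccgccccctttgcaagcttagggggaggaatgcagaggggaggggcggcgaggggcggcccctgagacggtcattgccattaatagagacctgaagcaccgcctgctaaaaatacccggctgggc
Positions are counted from the annotated start as 0, and both strands were searched. In Lcn2 the capitals mark a C/EBP match (TTGCNNAA) at -216, a motif found in 10.8% of 32851 mouse promoters of the same length. In Steap4 they mark NF-kB matches at -250 and -226 (8.5% of promoters hold such a match), a STAT match (TTCNNNGAA) at -116 (8.3% of promoters) and a C/EBP match at -87. In Gfap they mark a STAT match at -2, and in Hspb1 heat shock element matches (GAANNTTC) at -117 and -97 (7.9% of promoters). Vim held 3 NF-kB matches, of which a pair overlap each other, and no member held an AP-1 match (TGANTCA, 7.8% of promoters) or a CArG match (1.6% of promoters). These are matches of letters, not sites of binding.

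Of the 8 genes tested, 3 were higher and 2 lower in Ogt cKO than in cKO control libraries. There 42.3% of all 14014 genes were called (22.6% higher, 19.8% lower) at a Benjamini-Hochberg adjusted p under 0.05. Lcn2, Hspb1 and Vim were the higher ones and Gfap and Synm the lower ones. In the AD model 2 genes, Lcn2 and Steap4, were higher and 1, Hspb1, was lower than in AD control libraries, where 17.1% of all genes were called (9.8% higher, 7.27% lower). In Aβ treated libraries 4 genes, Lcn2, Steap4, Synm and S1pr3, were higher than in Aβ control libraries and none was lower, where 35.9% of all genes were called (20.8% higher, 15.1% lower). Lcn2 was the only one of the 8 called in the same direction in all 3 experiments. The median log2 change over the 8 genes was 0.27 in Ogt cKO, -0.61 in the AD model and 0.70 after Aβ, against a median over all tested genes of -0.0024, -0.024 and -0.037. These calls depend in part on scale: rescaling to the total of recovered reads shifted the median of all genes by -0.19 in Ogt cKO and put 35.5% of its calls on the higher side, against 53.3% as tested. Quantile normalization put 47.4% of the calls after Aβ on the higher side, against 58.0% as tested. Of the members, Vim in Ogt cKO lost its call under both scalings (log2 changes 0.95 and 0.51, limma adjusted p = 0.068 and 0.29), and no called member changed direction.

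**Figure D1:**
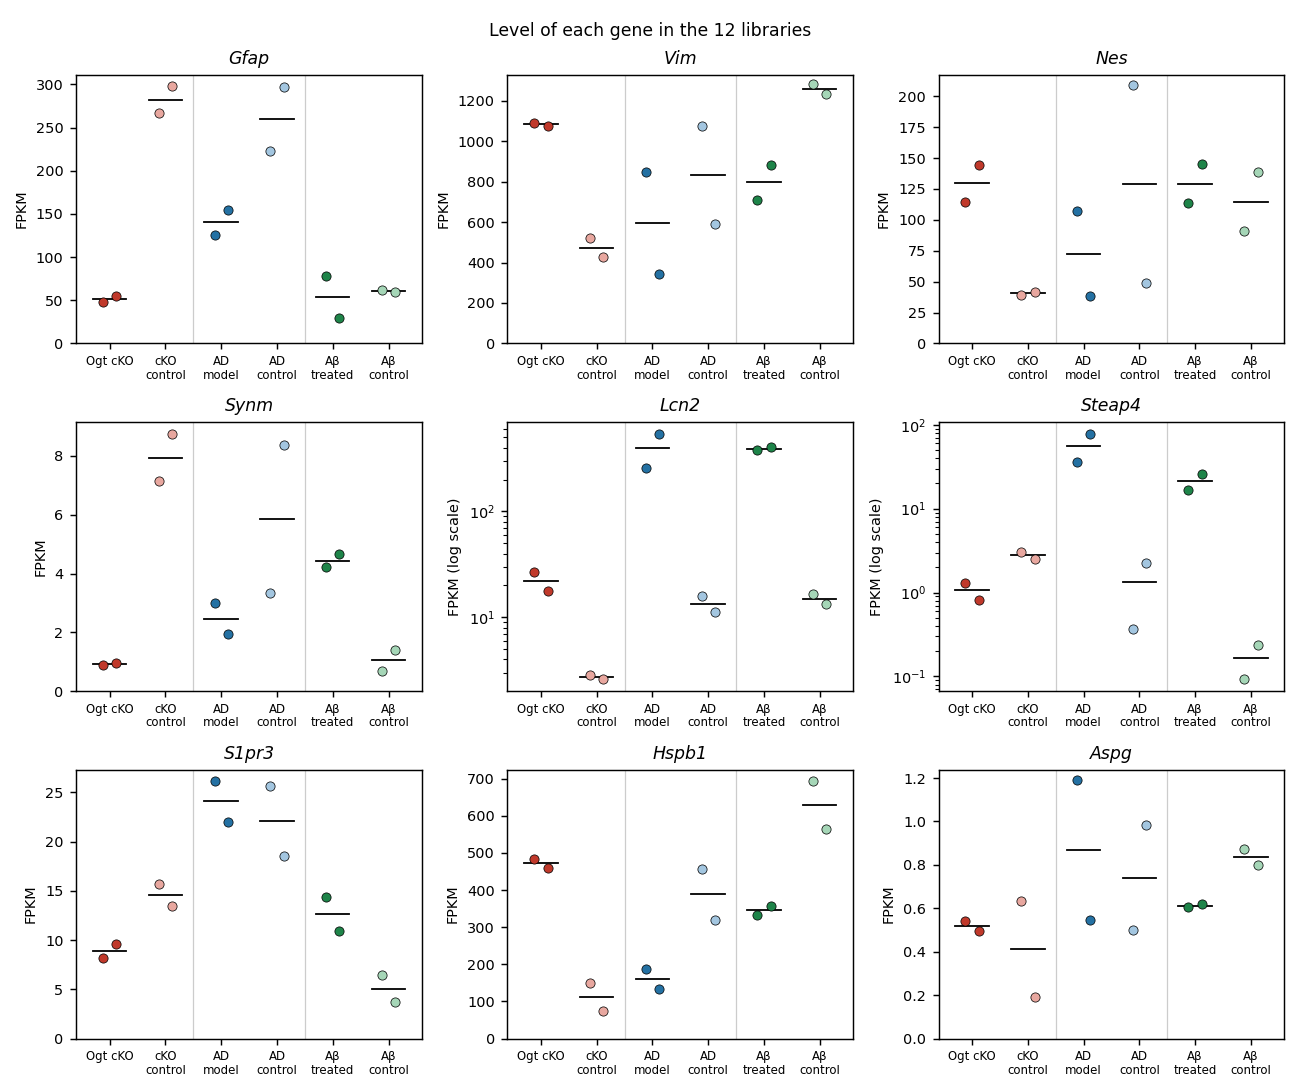
FPKM of each of the 9 genes (vertical axes, log scale for Lcn2 and Steap4) in the 2 libraries of each of the 6 groups (points) with the group mean (line). Lcn2 and Steap4 stood highest in the AD model and Aβ treated libraries, Gfap and Synm were lowest or close to lowest in Ogt cKO and Aβ control libraries, and Vim and Hspb1 were highest there.

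Among the filament genes, Gfap, the defining filament of astrocytes, had 48.0 and 55.3 FPKM in Ogt cKO libraries, against 267 and 298 FPKM in cKO control libraries. The groups were far apart, and the Ogt cKO mean was 5.46-fold lower (log2 change -2.43 ± 0.37, limma adjusted p = 0.0025). In AD model libraries Gfap had 125 and 155 FPKM, against 222 and 297 FPKM in AD control libraries. These groups did not overlap either, as in 44.8% of all genes tested, and the difference did not pass the threshold after adjustment (log2 change -0.88 ± 0.37, unadjusted p = 0.042, limma adjusted p = 0.15). Aβ treated libraries held 77.6 and 29.1 FPKM of Gfap, on either side of the 62.3 and 60.1 FPKM in Aβ control libraries (log2 change -0.36 ± 0.37, limma adjusted p = 0.48). The 2 treated libraries differed more from each other than the group means did. Without Aβ treated replicate 1, which held the higher level, Gfap was called lower (log2 change -1.05, adjusted p = 0.017). No experiment gave a higher group mean of Gfap in the mutant, model or treated group than in its control. By level, the cKO control and AD control libraries overlapped at the top, the AD model libraries lay alone below them, and the Aβ control, Aβ treated and Ogt cKO libraries overlapped at the bottom.

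Synm, the large filament protein that cannot form filaments alone, was the least abundant of the 4. It had 0.873 and 0.967 FPKM in Ogt cKO libraries, against 7.14 and 8.75 FPKM in cKO control libraries. The mean was 8.64-fold lower, with no overlap, as in 83.9% of all genes tested (log2 change -2.22 ± 0.33, limma adjusted p = 0.0024). In the AD model it had 2.99 and 1.94 FPKM, against 3.35 and 8.38 FPKM in AD control libraries (log2 change -0.90 ± 0.33, limma adjusted p = 0.11). The difference there was called once AD control replicate 1 was left out (adjusted p = 0.0091). In Aβ treated libraries Synm had 4.205 and 4.651 FPKM, against 0.671 and 1.41 FPKM in Aβ control libraries. It was thus higher by 4.26-fold after Aβ (log2 change 1.44 ± 0.33, limma adjusted p = 0.010), a call lost without Aβ treated replicate 2 (adjusted p = 0.055) and without Aβ control replicate 1 (adjusted p = 0.085). Synm overlaps Ttc23 on the opposite strand (1.07 to 2.42 FPKM over the libraries), and whether the counting used strand is not stated, so reads shared by these genes cannot be told apart at these low levels.

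Vim, the filament of mesenchymal and immature glial cells, had 343 to 1282 FPKM over the 12 libraries. It was the most abundant of the 9 genes in all of them except AD model replicate 2, where Lcn2 had 535 FPKM. It had 1089 and 1076 FPKM in Ogt cKO libraries, against 520 and 429 FPKM in cKO control libraries. The mean was 2.28-fold higher (log2 change 1.196 ± 0.41, limma adjusted p = 0.043). That call was close to the threshold and was lost when any 1 of the 4 libraries was left out (adjusted p 0.098 to 0.18). The AD model libraries held 846 and 343 FPKM of Vim, against 1076 and 590 FPKM in AD control libraries, with the replicates of each group far apart (log2 change -0.56 ± 0.41, limma adjusted p = 0.42). Without AD model replicate 1 the difference was called (log2 change -1.21, adjusted p = 0.048). Aβ treated libraries held 709 and 884 FPKM, below the 1282 and 1233 FPKM in Aβ control libraries. The groups did not overlap, as in 76.8% of all genes tested, and the difference did not pass the threshold (log2 change -0.67 ± 0.41, limma adjusted p = 0.23).

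Nes, the progenitor filament that co-assembles with vimentin, had 114 and 145 FPKM in Ogt cKO libraries, against 39.4 and 41.9 FPKM in cKO control libraries. The groups did not overlap, as was the case for 83.9% of all genes tested, and the change missed the threshold (log2 change 1.64 ± 0.64, limma adjusted p = 0.065). Replicates of the AD experiment spread widely, at 107 and 38.2 FPKM in AD model, against 209 and 49.0 FPKM in AD control libraries (log2 change -0.65 ± 0.64, limma adjusted p = 0.56). In the Aβ experiment they were 113 and 145 FPKM in treated, against 91.1 and 139 FPKM in control libraries (log2 change 0.19 ± 0.64, limma adjusted p = 0.84). In both experiments the groups overlapped.

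The 4 filament genes together therefore showed 1 higher and 2 lower of 4 in Ogt cKO and 1 higher and 0 lower in Aβ treated libraries. Of all genes, 42.3% and 35.9% were called in these comparisons. None was called in the AD model, by limma on FPKM or by voom on the recovered reads, beside 17.1% and 17% of all genes called. Gfap and Synm were 2 of the 4 with an unadjusted p under 0.05 there. With 1 library left out, the counts in the AD model and after Aβ changed, through the calls of Gfap, Synm and Vim given above. Such fits leave 1 library in a group. Per length, Gfap made up 3.84% and 4.33% of the summed FPKM of the 4 genes in Ogt cKO libraries, against 32.0% and 38.3% in cKO control libraries. In the AD experiment its share was 11.6% and 28.8% in model libraries, against 14.7% and 31.4% in control libraries, so the groups overlapped. In the Aβ experiment it was 8.58% and 2.74% in treated, against 4.34% and 4.19% in control libraries. The sum of the 4 genes was 1252 and 1277 FPKM in Ogt cKO, against 833 and 777 FPKM in cKO control libraries, so the lower Gfap stood beside a larger total, most of it Vim.

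**Figure D2:**
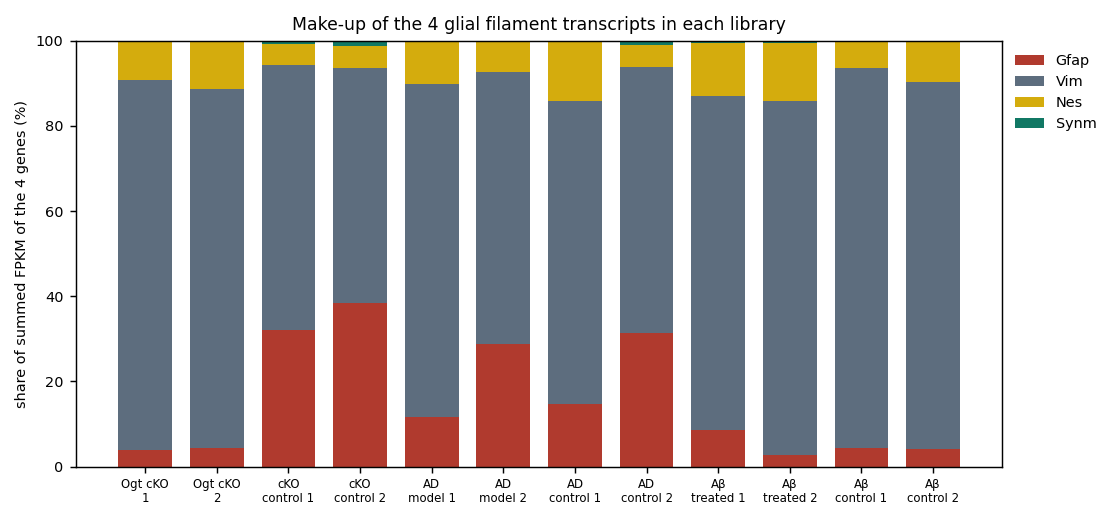
Share of the summed FPKM of Gfap, Vim, Nes and Synm (vertical axis, percent) taken by each gene in each of the 12 libraries (bars). Gfap took 3.84% and 4.33% in Ogt cKO libraries and 32.0% and 38.3% in cKO control libraries, and Vim took more than any other gene in every library.

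Lcn2, a secreted protein that carries iron-binding siderophores and is among the most induced transcripts of reactive astrocytes, had 259 and 535 FPKM in AD model libraries, against 15.7 and 11.2 FPKM in AD control libraries. The mean was 29.4-fold higher (log2 change 4.70 ± 0.32, limma adjusted p = 3.3e-05). In Aβ treated libraries it had 377 and 407 FPKM, against 16.4 and 13.3 FPKM in Aβ control libraries. That was a 26.4-fold higher mean (log2 change 4.64 ± 0.32, limma adjusted p = 3.0e-05). In Ogt cKO libraries it had 26.7 and 17.8 FPKM, against 2.87 and 2.62 FPKM in cKO control libraries, 8.09-fold higher (log2 change 2.61 ± 0.32, limma adjusted p = 0.0013). The Ogt cKO libraries lay just above the AD and Aβ control libraries in level, and the cKO control libraries held the least Lcn2 of the series. All 3 calls held in each of the 13 alternative settings tried.

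Steap4, a metalloreductase that reduces iron and copper and is induced by inflammation in fat and liver, followed Lcn2 in the AD and Aβ experiments. It had 35.9 and 77.1 FPKM in AD model libraries, against 0.365 and 2.27 FPKM in AD control libraries, a 42.8-fold higher mean (log2 change 4.67 ± 0.44, limma adjusted p = 2.2e-04). The AD control values rest on 19 and 141 reads, and the ratio is imprecise: it was 24.8-fold without AD control replicate 1 and 155-fold without AD control replicate 2. In Aβ treated libraries it had 16.6 and 25.6 FPKM, against 0.0937 and 0.237 FPKM in Aβ control libraries. The control values rest on 5 and 13 reads, so the ratio of means, 127-fold, is imprecise too, at 88.9-fold without Aβ control replicate 1 and 225-fold without Aβ control replicate 2 (log2 change 4.22 ± 0.44, limma adjusted p = 2.2e-04). Ogt cKO libraries held 1.31 and 0.810 FPKM of Steap4, below the 3.08 and 2.54 FPKM in cKO control libraries, without passing the threshold (log2 change -0.89 ± 0.44, limma adjusted p = 0.13). Lcn2 was thus called higher in Ogt cKO libraries while the Steap4 estimate there was below 0, with a 95% interval of -1.89 to 0.11.

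S1pr3, a G protein-coupled receptor for the lipid sphingosine-1-phosphate, had 14.4 and 10.9 FPKM in Aβ treated libraries, against 6.41 and 3.68 FPKM in Aβ control libraries. It was 2.51-fold higher (log2 change 1.203 ± 0.25, limma adjusted p = 0.0057). In the AD model it had 26.2 and 22.0 FPKM, against 25.6 and 18.6 FPKM in AD control libraries, which overlapped (log2 change 0.13 ± 0.25, limma adjusted p = 0.78). The 95% interval of that log2 change ran from -0.42 to 0.69. In Ogt cKO it had 8.22 and 9.58 FPKM, against 15.7 and 13.5 FPKM in cKO control libraries (log2 change -0.66 ± 0.25, limma adjusted p = 0.057). This last difference lay just outside the threshold and passed it in 5 of 13 alternative settings, among them voom on the recovered reads (adjusted p = 0.0498). By level, S1pr3 was highest in both groups of the AD experiment, which overlapped.

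Aspg, an enzyme that hydrolyses asparagine and lysophospholipids, was close to the limit of detection, with 14 to 74 reads per library. It had 0.542 and 0.496 FPKM in Ogt cKO, against 0.633 and 0.193 FPKM in cKO control libraries. In the AD model it had 1.19 and 0.546 FPKM, against 0.499 and 0.983 FPKM in AD control libraries. In the Aβ experiment it had 0.604 and 0.620 FPKM in treated libraries, below the 0.873 and 0.801 FPKM in control libraries. Only 1 library reached 1 FPKM, so it was not tested in the filtered table. Without the filter its log2 changes were 0.12, 0.094 and -0.19 in the cKO, AD and Aβ experiments, with limma adjusted p-values of 0.84, 0.94 and 0.67.

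Hspb1, the small heat shock protein also called Hsp25 in mouse, had 483 and 461 FPKM in Ogt cKO libraries, against 149 and 74.7 FPKM in cKO control libraries. It was 4.22-fold higher (log2 change 2.15 ± 0.32, limma adjusted p = 0.0024). In AD model libraries it had 188 and 133 FPKM, against 457 and 319 FPKM in AD control libraries, 2.42-fold lower (log2 change -1.27 ± 0.32, limma adjusted p = 0.027). That call was lost in 4 of 13 alternative settings: without AD model replicate 2 and without AD control replicate 1 (adjusted p = 0.11 for both), with no filter (0.072) and in the fit on the 4 libraries of the experiment alone (0.18). In Aβ treated libraries it had 332 and 358 FPKM, below the 694 and 566 FPKM in Aβ control libraries, and missed the threshold (log2 change -0.86 ± 0.32, limma adjusted p = 0.066). Hspb1 and Synm were the members called in opposite directions in different experiments, Hspb1 in Ogt cKO and the AD model, and Synm in Ogt cKO and after Aβ.

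**Figure D3:**
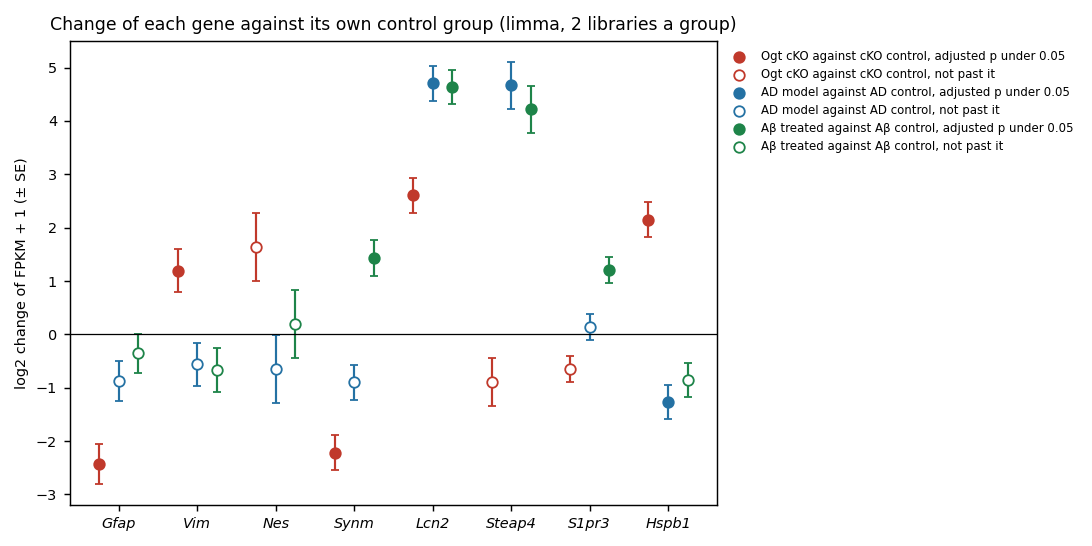
Fitted log2 change of FPKM + 1 of the 8 tested genes (vertical axis) in Ogt cKO, AD model and Aβ treated libraries, each against its own control, with the SE as bars and 2 libraries a group. Filled points have a limma adjusted p under 0.05. Lcn2 lies above 0 in all 3 experiments, at 2.61, 4.70 and 4.64, and Hspb1 lies at 2.15 in Ogt cKO and at -1.27 in the AD model.

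The changes were then compared between experiments as contrasts of the same fit. Rescaling to total reads put 63.2% of the calls for AD minus cKO on the higher side (46.6% as tested) and 63.3% of those for Aβ minus cKO (50.9% as tested), with shifts of the median of 0.21 and 0.25. The AD change differed from the Ogt cKO change for 3 of 8 genes, with 25.6% of all genes called (11.9% higher, 13.7% lower). Steap4 differed by 5.56 ± 0.63 and Lcn2 by 2.10 ± 0.46 on the log2 scale, both more positive in the AD experiment, and Hspb1 by -3.42 ± 0.46 (limma adjusted p of 7.4e-04, 0.013 and 0.0017). The Lcn2 difference was lost without Ogt cKO replicate 2 (adjusted p = 0.054). The change after Aβ differed from the Ogt cKO change for 7 of 8 genes, all but Nes, with 52.3% of all genes called (26.6% higher, 25.7% lower). Synm (3.65 ± 0.47), Steap4 (5.11 ± 0.63), Gfap (2.07 ± 0.52), Lcn2 (2.03 ± 0.46) and S1pr3 (1.86 ± 0.35) were more positive after Aβ. Hspb1 (-3.01 ± 0.46) and Vim (-1.86 ± 0.58) were more negative, the Vim difference being lost in 8 of 17 alternative settings. Between the AD and Aβ changes only Synm was called (-2.33 ± 0.47, limma adjusted p = 0.025), with 6.14% of all genes called (1.52% higher, 4.62% lower), and it was lost in 6 of 17 alternative settings. For Lcn2 and Steap4 the AD and Aβ changes differed by 0.06 ± 0.46 and 0.45 ± 0.63 (limma adjusted p = 0.95 and 0.71). A difference that misses the threshold does not show that they were equal. These contrasts share libraries with each other and with the comparisons above.

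The 3 control groups themselves differed in these genes, and age, genotype and experiment cannot be told apart in that comparison. Rescaling put 64.4% of the calls of cKO control against Aβ control libraries on the higher side (50.5% as tested) and 66.5% of those of AD control against Aβ control libraries (51.9% as tested). The cKO control libraries had 7 of 8 genes called against Aβ control libraries, where 45.7% of all genes were called (23.1% higher, 22.6% lower). Gfap (log2 difference 2.19 ± 0.37), Synm (2.15 ± 0.33), Steap4 (1.71 ± 0.44) and S1pr3 (1.40 ± 0.25) were higher in cKO control libraries. Hspb1 (-2.56 ± 0.32), Lcn2 (-2.07 ± 0.32) and Vim (-1.41 ± 0.41) were lower. The Vim call was lost in 6 and the Steap4 call in 3 of 13 alternative settings (limma adjusted p up to 0.15 and 0.081). Against AD control libraries the cKO control libraries were lower in Lcn2 (-1.93 ± 0.32) and Hspb1 (-1.85 ± 0.32) only, with 7.98% of all genes called (3.49% higher, 4.49% lower). Of 13 alternative settings, 4 lost this Lcn2 call and 3 this Hspb1 call (limma adjusted p up to 0.11 and 0.17). AD control libraries were higher than Aβ control libraries in Gfap (2.05 ± 0.37), S1pr3 (1.95 ± 0.25) and Synm (1.67 ± 0.33), with 32.2% of all genes called (16.7% higher, 15.5% lower). The Synm call there was lost in 2 of 13 settings (limma adjusted p up to 0.085). The gap between these untreated groups was close in size for Gfap to the difference between Ogt cKO and its own control.

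Counts over the published pan-reactive list, of which 7 members are part, were 6 higher and 1 lower of 12 tested in Ogt cKO, 4 higher and 1 lower in the AD model, and 6 higher and 2 lower after Aβ, beside 42.3%, 17.1% and 35.9% of all genes called. Over the 6 genes of that list that are not members, the AD model had 2 called higher, and 4 without AD control replicate 1. After Aβ, 3 of the 6 were higher and 2 lower, and none was lower without Aβ treated replicate 1 or without Aβ control replicate 1. Cxcl10, a chemokine of the interferon response, was higher in all 3 experiments. It averaged 46.1 ± 12.96 FPKM in Ogt cKO and 2.05 ± 0.16 FPKM in cKO control libraries (SD, n = 2 each), 129 ± 72.6 FPKM in AD model and 1.76 ± 0.22 FPKM in AD control libraries, and 35.6 ± 10.6 FPKM in Aβ treated and 0.811 ± 0.516 FPKM in Aβ control libraries. The log2 changes were 3.92, 5.43 and 4.34 (limma adjusted p of 6.7e-04, 4.0e-05 and 9.8e-05). Timp1, an inhibitor of metalloproteinases, averaged 2955 FPKM in Ogt cKO, against 149 FPKM in cKO control libraries (log2 change 4.30 ± 0.57, limma adjusted p = 0.0016), and 412 FPKM in Aβ treated, against 2272 FPKM in Aβ control libraries (-2.45 ± 0.57, limma adjusted p = 0.010). Cd44, the hyaluronan receptor, was likewise higher in Ogt cKO (158 FPKM, against 20.3 FPKM in control, log2 change 2.92 ± 0.41) and lower after Aβ (45.6 FPKM, against 109 FPKM in control, -1.24 ± 0.41, limma adjusted p = 0.042). The lower call of Timp1 was lost without Aβ treated replicate 1 and without Aβ control replicate 1 (adjusted p up to 0.076), and that of Cd44 without any 1 of the 4 libraries (adjusted p up to 0.16). Cp, the ferroxidase ceruloplasmin, was higher in the AD model (98.7 FPKM, against 15.4 FPKM, log2 change 2.51 ± 0.39) and after Aβ (59.2 FPKM, against 4.64 FPKM, 3.42 ± 0.39) and was not called in Ogt cKO. Serpina3n, a secreted protease inhibitor, was called after Aβ alone (115 FPKM in treated and 27.0 FPKM in control libraries, log2 change 1.99 ± 0.30). Osmr, the oncostatin M receptor subunit, was called in no experiment (log2 changes -0.52, -0.33 and 0.39).

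Genes that act beside the members were counted from lists chosen by function. Each count from all 12 libraries stands beside 42.3% of all genes called in Ogt cKO, 17.1% in the AD model and 35.9% after Aβ. Counts with 1 library left out, here and below, come from fits that leave 1 library in a group. In Ogt cKO and after Aβ those fits called fewer of all genes too, so a smaller count there cannot be read as particular to a list. Among 10 tested other intermediate filament genes, 5 were higher and none lower in Ogt cKO, 1 higher and 2 lower in the AD model, and 3 higher and 4 lower after Aβ. The 5 in Ogt cKO became 1 without either Ogt cKO library or without cKO control replicate 2, and the 7 after Aβ became 4 without Aβ treated replicate 1 or without either Aβ control library. Krt19, an epithelial keratin, averaged 80.4 FPKM in Ogt cKO and 0.832 FPKM in cKO control libraries (log2 change 5.55 ± 0.64, limma adjusted p = 0.0011). Des, the muscle filament, averaged 9.46 FPKM in the AD model and 106 FPKM in AD control libraries (-3.19 ± 0.59, limma adjusted p = 0.0065). The AD control replicates of Des were 165.6 and 46.7 FPKM. That Des call was lost in the fit on the libraries of the AD experiment alone (limma adjusted p = 0.12), where 1.98% of all genes were called. Also lost in that fit were the AD model calls of Cp, Cebpb, Il6, Asrgl1, Nfix and Tfrc, while those of Cxcl10 and Nfkbiz held. Of 7 tested filament linkers, 2 were higher and 5 lower in Ogt cKO, 0 and 2 in the AD model, and 3 and 2 after Aβ. The 7 in Ogt cKO became 3 without either Ogt cKO library or without cKO control replicate 2. The 2 in the AD model became 0 without AD model replicate 2 or without AD control replicate 1 (limma, 3 unadjusted p under 0.05 in each). Plec, the cytolinker plectin, averaged 32.8 FPKM in Aβ treated and 78.3 FPKM in Aβ control libraries (-1.24 ± 0.21, limma adjusted p = 0.0022). In Ogt cKO it was called in the opposite direction, higher than in cKO control libraries. It was called lower in the AD model (-0.70 ± 0.21, limma adjusted p = 0.048), a call lost in 9 of 13 alternative settings. Among 16 tested heat shock genes, 5 were higher and 1 lower in Ogt cKO, 0 and 2 in the AD model, and 1 and 6 after Aβ. The 6 in Ogt cKO became 3 without Ogt cKO replicate 1 or without cKO control replicate 2. The 2 in the AD model became 1 without AD model replicate 1 or without AD control replicate 1, and 4 without AD control replicate 2. Cryab, the small heat shock protein that binds the same filaments as Hspb1, averaged 439 FPKM in Ogt cKO and 175 FPKM in cKO control libraries (1.32 ± 0.22, limma adjusted p = 0.0036). After Aβ it averaged 99.6 FPKM, against 521 FPKM in Aβ control libraries (-2.40 ± 0.22, limma adjusted p = 1.2e-04).

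Of 8 tested genes that act with Lcn2 as inducers, receptors or partners, 3 were higher and 3 lower in Ogt cKO, 4 and 0 in the AD model, and 5 and 1 after Aβ. Nfkbiz, an atypical IkappaB protein needed for Lcn2 induction in several cell types, was higher in all 3 experiments. It averaged 15.6 FPKM in Ogt cKO and 3.37 FPKM in cKO control libraries (log2 change 1.93 ± 0.17), 29.7 FPKM in AD model and 3.66 FPKM in AD control libraries (2.72 ± 0.17), and 28.6 FPKM in Aβ treated and 3.39 FPKM in Aβ control libraries (2.78 ± 0.17). Cebpb, a C/EBP transcription factor, was higher in Ogt cKO (106 FPKM, against 32.6 FPKM) and in the AD model (137 FPKM, against 40.9 FPKM). Cebpd, of the same family, averaged 93.0 FPKM in Aβ treated and 30.2 FPKM in Aβ control libraries (1.58 ± 0.18). These calls were not limited to the experiments named. Cebpb was called after Aβ as well, and Cebpd was called higher in the AD model, a call lost in 5 of 13 alternative settings. In the Steap and iron list of 6 genes, 3 were higher and 1 lower in Ogt cKO, and 2 were higher and none lower in each of the AD and Aβ comparisons. The 4 called in Ogt cKO became 2 without either Ogt cKO library or without cKO control replicate 2, and the 2 in the AD model became 1 without AD model replicate 1 or without AD control replicate 2. Steap3, the erythroid ferrireductase, averaged 1.29 FPKM in Ogt cKO and 20.2 FPKM in cKO control libraries (-3.15 ± 0.30). Tfrc, the transferrin receptor, was higher in the AD model (15.2 FPKM, against 7.27 FPKM, log2 change 0.97 ± 0.22) and after Aβ (13.2 FPKM, against 5.58 FPKM, 1.15 ± 0.22). Tfrc was also called higher in Ogt cKO, a call lost in 5 of 13 alternative settings. Its call in the AD model was lost without AD model replicate 1 and without AD control replicate 2 (limma adjusted p up to 0.10).

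In the sphingosine-1-phosphate list of 11 tested genes, 2 were higher and 3 lower in Ogt cKO, 2 and 1 in the AD model, and 4 and 2 after Aβ. The 5 called in Ogt cKO became 1 without Ogt cKO replicate 1, 2 without Ogt cKO replicate 2, 3 without cKO control replicate 1, and 0 without cKO control replicate 2 (limma, 5 unadjusted p under 0.05). S1pr2, another receptor of the family, averaged 4.42 FPKM in Aβ treated and 10.6 FPKM in Aβ control libraries (log2 change -1.09 ± 0.12, limma adjusted p = 2.9e-04), the opposite direction to S1pr3, and 14.7 FPKM in Ogt cKO and 9.29 FPKM in cKO control libraries (0.61 ± 0.12, limma adjusted p = 0.0060, and 0.051 without cKO control replicate 2). Of 6 asparagine and lysophospholipid enzymes, 2 were higher and 1 lower in Ogt cKO, 0 and 1 in the AD model, and 1 and 0 after Aβ. The 3 in Ogt cKO became 1 without Ogt cKO replicate 1 or without cKO control replicate 2, and the 1 in the AD model became 2 without AD model replicate 2 or without AD control replicate 1. The 1 after Aβ became 0 without Aβ treated replicate 1 or without Aβ control replicate 1 (limma, 1 unadjusted p under 0.05). Asrgl1, an asparaginase, averaged 7.25 FPKM in Ogt cKO and 22.4 FPKM in cKO control libraries, and 7.98 FPKM in AD model and 23.7 FPKM in AD control libraries (log2 changes -1.49 and -1.47). Among 19 tested regulators of gliosis, 2 were higher and 10 lower in Ogt cKO, 1 and 4 in the AD model, and 7 and 2 after Aβ. The 12 in Ogt cKO became 7 without cKO control replicate 2. Nfix, a nuclear factor I protein of glial differentiation, averaged 14.2 FPKM in Ogt cKO and 40.8 FPKM in cKO control libraries (-1.45 ± 0.14). It was also called lower in the AD model. Il6, a cytokine, averaged 8.13 FPKM in Ogt cKO and 0.279 FPKM in cKO control libraries (2.85 ± 0.33), and 11.3 FPKM in AD model and 1.70 FPKM in AD control libraries (2.27 ± 0.33). Il6 was called after Aβ as well.

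Markers of cell types moved with several of these genes, and fewer cells of a type and less RNA per cell cannot be told apart in such bulk samples. Of 14 tested mature astrocyte markers, none was higher and 9 were lower in Ogt cKO, 0 and 5 in the AD model, and 3 and 1 after Aβ. Of all genes, 22.6% were higher and 19.8% lower in Ogt cKO, 9.8% and 7.27% in the AD model, and 20.8% and 15.1% after Aβ. These shares also stand beside the smooth muscle and microglia counts below. Across the 12 libraries, Gfap correlated with the summed astrocyte markers at 0.93 and Synm at 0.87 (Pearson's r of log values, in libraries that share groups and experiments). Gfap divided by that sum was 0.290 and 0.317 in Ogt cKO, against 0.5005 and 0.446 in cKO control libraries, 0.412 and 0.528 in AD model, against 0.536 and 0.556 in AD control libraries, and 0.257 and 0.152 in Aβ treated, against 0.364 and 0.343 in Aβ control libraries. Glul, the gene of glutamine synthetase, made up 20.9% to 59.2% of that sum. With Glul left out, the ratio was 0.546 and 0.572 in Ogt cKO, against 0.853 and 0.799 in cKO control libraries, 0.773 and 1.09 in AD model, against 0.678 and 0.715 in AD control libraries, and 0.601 and 0.374 in Aβ treated, against 0.655 and 0.595 in Aβ control libraries. The ratio, which was not tested, was thus lower in Ogt cKO either way, while its direction in the AD experiment turned with Glul and the Aβ libraries overlapped without it.

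The summed FPKM of 11 smooth muscle and pericyte markers was 4693 to 4814 in Ogt cKO, against 525 to 1058 in cKO control libraries, 214 to 799 in AD model, against 1798 to 4316 in AD control libraries, and 445 to 505 in Aβ treated, against 4173 to 4652 in Aβ control libraries. Acta2 was at 170.7 FPKM or more in every library, and of the genes that mark pericytes Kcnj8 and Abcc9 stayed at or under 0.333 FPKM, Rgs5 had 0.405 to 3.24, Cspg4 1.79 to 42.1 and Pdgfrb 12.2 to 86.8 FPKM. Of 9 tested markers in this list, 6 were higher and none lower in Ogt cKO, 0 and 7 in the AD model, and 0 and 8 after Aβ. Vim (r = 0.80), Hspb1 (r = 0.75) and Nes (r = 0.52) varied with this sum across the 12 libraries, and its part in their changes was not tested. The sum of 12 microglia and macrophage markers was 2994 to 3987 in Ogt cKO, against 7010 to 9002 in cKO control libraries, 3230 to 5409 in AD model, against 1034 to 1582 in AD control libraries, and 4485 to 5912 in Aβ treated, against 2221 to 3701 in Aβ control libraries. Of the 12 markers, none was higher and 5 were lower in Ogt cKO, 8 and 0 in the AD model, and 4 and 2 after Aβ. Lcn2 correlated with the sum at 0.10 and Steap4 at 0.42. Most of the sum was Lyz2 and the C1q genes, and other markers of the list varied in another order. Aif1 had 7.71 to 22.2 FPKM in AD model and Aβ treated libraries and 8.26 to 8.79 FPKM in Ogt cKO libraries. It had 2.44 to 4.92 FPKM in cKO control libraries and 0.399 to 5.34 FPKM in AD and Aβ control libraries. Ptprc had 2.72 to 5.94 FPKM in AD model and Aβ treated libraries and 0.432 to 0.483 FPKM in Ogt cKO libraries. It had 1.15 to 1.51 FPKM in cKO control libraries and 0.220 to 0.919 FPKM in AD and Aβ control libraries. Tmem119 had 2.18 to 7.16 FPKM in AD model, against 7.12 to 18.6 FPKM in AD control libraries. After Aβ it had 2.55 to 5.055 FPKM, against 12.2 to 20.1 FPKM in Aβ control libraries. Cx3cr1 had 0.996 and 0.286 FPKM in Aβ treated, against 4.37 and 8.68 FPKM in Aβ control libraries. The part of these cells in the Lcn2 and Steap4 levels was not tested. Of 7 neuronal markers, Snap25 was at 0 in 6 libraries and at most 0.0375 FPKM in the others. Syt1, Rbfox3, Gad1 and Slc17a7 had at most 0.182 FPKM in any library. Tubb3 had 40.6 to 177.5 FPKM and Stmn2 1.06 to 19.3 FPKM over the 12 libraries.

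**Figure D4:**
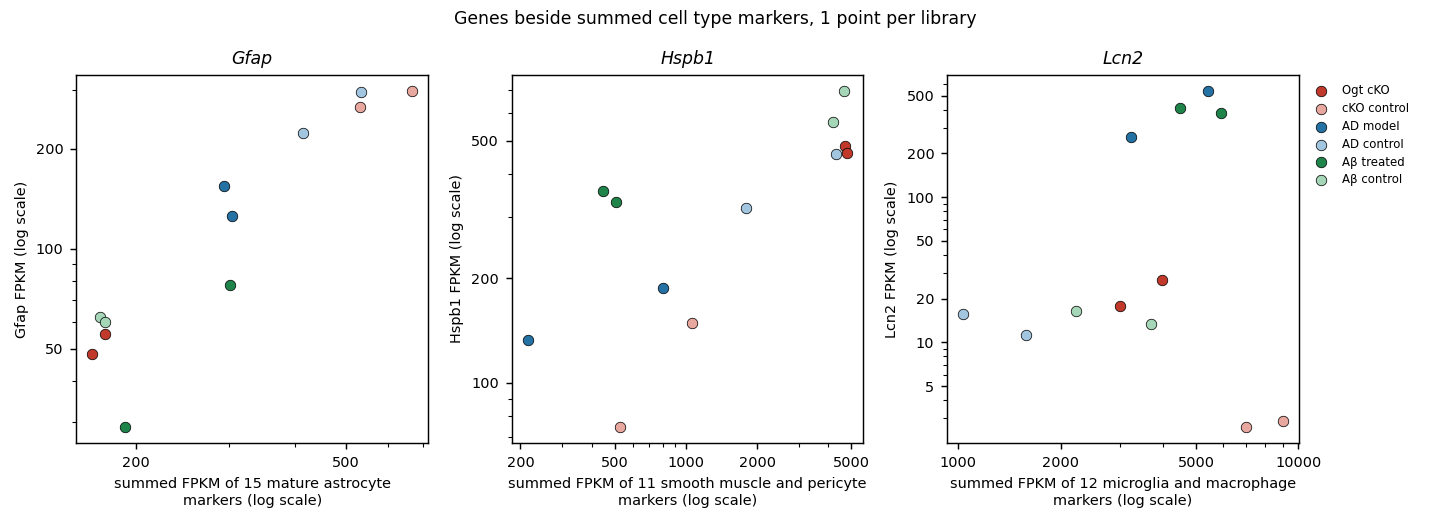
FPKM of Gfap, Hspb1 and Lcn2 (vertical axes, log scale) against the summed FPKM of 15 mature astrocyte, 11 smooth muscle and pericyte, and 12 microglia and macrophage markers (horizontal axes, log scale) in the 12 libraries (points, coloured by group). Gfap rises with astrocyte markers (r = 0.93), and the 5 libraries with the highest Hspb1 are also the 5 with the highest smooth muscle sums. Lcn2 (r = 0.10) is at 259 to 535 FPKM in the AD model and Aβ treated libraries, where the microglia sums are 3230 to 5912. The highest microglia sums, 7010 to 9002 in cKO control libraries, stand beside the lowest Lcn2, 2.62 to 2.87 FPKM.

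The members themselves fell into sets across the 12 libraries. Vim correlated with Hspb1 at 0.89 and with Nes at 0.85, Lcn2 with Steap4 at 0.83, and Gfap with Synm at 0.66, whereas Gfap and Vim correlated at -0.64. These are descriptions over libraries that share groups and experiments. Among 7355 genes with a mean of at least 5 FPKM, the 3 genes most like Gfap were Fgfrl1 (r = 0.98), Slc1a3, the glutamate transporter known as Glast (0.97), and Sox9, an astrocyte transcription factor (0.97). Vim was followed most closely by Trim46 (0.99), Rin1 (0.98) and Arhgap23 (0.97), and Nes by Thbs1 (0.96), Sh3bp4 (0.95) and Cd109 (0.95). For Hspb1 these were Trim47 (0.97), Tceal9 (0.97) and Eva1b (0.97). Lcn2 was most like Pim1 (0.99), H2-Q4 (0.97) and Irgm1 (0.97), and Steap4 most like Stat2, Iigp1 and Parp12 (0.98 each), of which Stat2, Irgm1 and Iigp1 are genes of the interferon response. The genes nearest to Synm were Tacc1, Ppp2r5a and Cachd1 (0.94 to 0.95), and those nearest to S1pr3 were mt-Nd2, Zfp445 and Arl14ep (0.91 to 0.95).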

How the data were processed

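RNA of 12 libraries in 6 groups of 2 was analysed. The authors deposited FPKM per gene, with gene lengths, on mm10 per the submitters' processing notes. The sources used here name no aligner or counting tool, and do not say how strand or multiply matching reads were treated. Whole reads were recovered from the steps of FPKM times gene length in 100% of values (tolerance 0.1 read) and came to 16418852 to 18705309 per library.

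The test was that of limma 3.58.1 (R 4.3.3), applied to log2(FPKM + 1), a scale that understates changes of low genes. The fit had 1 mean per group over all 12 libraries, 6 residual degrees of freedom, an intensity trend and two-sided tests. A minimum of 1 FPKM in 2 or more libraries left 14014 genes, and p-values were adjusted by Benjamini-Hochberg over all of them, with a threshold of 0.05.

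Named genes were the 9 members, the other genes of the pan-reactive list, up to 2 genes of each other list and comparison with the smallest adjusted p and at least 2 FPKM in the higher group (some of these are described), and the 3 genes most like each member. The members, lists and rules were chosen with earlier results of these data known. The comparison of libraries across experiments and the astrocyte marker sum without Glul were added after their values were seen. Alternatives were other pseudocounts (0.1 and 0.5), filters, scalings, voom on the recovered reads, a replicate block, each comparison's libraries alone, and each library left out.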

Additional observations from a re-analysis of the deposited data

Results flagged for a closer look

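Differences between the changes of 2 experiments, tested as contrasts of the limma fit, marked 11 results of 7 genes for a closer look. On the log2 scale, the AD change minus the Ogt cKO change was 2.10 ± 0.46 (SE) for Lcn2 (adjusted p = 0.013), 5.56 ± 0.63 for Steap4 (7.4e-04) and -3.42 ± 0.46 for Hspb1 (0.0017). The Aβ change minus the Ogt cKO change was 2.07 ± 0.52 for Gfap (adjusted p = 0.010), -1.86 ± 0.58 for Vim (0.025), 3.65 ± 0.47 for Synm (5.5e-04) and 2.03 ± 0.46 for Lcn2 (0.0062). It was 5.11 ± 0.63 for Steap4 (adjusted p = 4.4e-04), 1.86 ± 0.35 for S1pr3 (0.0027) and -3.01 ± 0.46 for Hspb1 (0.0011). The AD change minus the Aβ change was -2.33 ± 0.47 for Synm (adjusted p = 0.025).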

How the results depend on the processing

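With 2 libraries a group, no member with a log2 change under 1.196 in size was called against its own control. Gfap, Synm, Lcn2 and Hspb1 in Ogt cKO, Lcn2 and Steap4 in the AD model, and Lcn2, Steap4 and S1pr3 after Aβ kept their direction and their call in each of 13 alternatives. Rescaling to total recovered reads gave 5 called members, against 3, for the AD change minus the cKO change (24.1% of all genes called). Fits on each comparison's own libraries called 8 members in Ogt cKO (5 otherwise, 62.1% of all genes called), 0 for the AD change minus the Aβ change (1 otherwise, 0.649%) and 0 for cKO control against AD control (2 otherwise, 0 of all genes). No filter also gave 0 for the AD change minus the Aβ change (1.78%). In each of these fits with 0, limma gave 2 members an unadjusted p under 0.05.

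With 1 library left out at a time, the members called ranged from 4 to 4 in Ogt cKO, 2 to 4 in the AD model, 3 to 5 after Aβ, 2 to 7 for AD minus cKO, 6 to 7 for Aβ minus cKO, 0 to 1 for AD minus Aβ, 0 to 5 for cKO control against AD control, 5 to 6 for cKO control against Aβ control, and 2 to 4 for AD control against Aβ control. In the same fits 13.3% to 22.9% of all genes were called in Ogt cKO, 15.5% to 17.3% in the AD model and 19.1% to 28.8% after Aβ. The share of all genes called also varied between these fits for the differences between experiments and between control groups. The ranges of member counts there cannot be read as particular to the members. Uncalled changes that turned sign were Steap4 for AD minus Aβ (-0.69 with a pseudocount of 0.1, -1.26 by voom). Leaving out 1 library turned these as well, in the ranges given. In the AD model these were Vim (-1.21 to 0.087), Nes (-1.69 to 0.38) and S1pr3 (-0.091 to 0.35), after Aβ they were Gfap (-1.05 to 0.34) and Nes (-0.11 to 0.49), and for AD minus Aβ they were Lcn2 (-0.46 to 0.59) and Steap4 (-0.18 to 1.08). The cause was not tested.

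A replicate block gave 6, 3 and 5 called members in the Ogt cKO, AD and Aβ comparisons, against 5, 3 and 4 without it, with 42.9%, 17% and 36.6% of all genes called. The labels share only a number: deviations of same-numbered libraries correlated at 0.033 in the cKO, 0.55 in the AD and -0.17 in the Aβ experiment.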

Other observations

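The Ogt cKO and Aβ control libraries, which come from different experiments and ages, had close levels of several of the 9 genes. Gfap averaged 51.7 FPKM in Ogt cKO and 61.2 FPKM in Aβ control libraries. Vim averaged 1083 FPKM in Ogt cKO and 1258 FPKM in Aβ control libraries, Nes 129 FPKM in Ogt cKO and 115 FPKM in Aβ control libraries, and Synm 0.920 FPKM in Ogt cKO and 1.04 FPKM in Aβ control libraries. Steap4 was further apart, at 1.06 FPKM in Ogt cKO and 0.165 FPKM in Aβ control libraries. Krt19, a keratin that also marks mesothelium, had 83.8 and 77.1 FPKM in Ogt cKO libraries, 80.8 and 101 FPKM in Aβ control libraries and 0.261 to 12.9 FPKM in the other 8 libraries. Among other mesothelium markers, Msln had 83.9 and 76.6 FPKM in Ogt cKO and 49.1 and 97.25 FPKM in Aβ control libraries. Krt8 was at 0 in both of these groups, and Upk3b and Lrrn4 had at most 0.0652 and 0.0155 FPKM in any library. No test was made between these groups.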
